A study of Mus musculus with 18 samples.

Results

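The mitochondrial respiratory chain is built largely from proteins that are encoded in the nucleus, and 81 of the 19938 genes tested here belong to that group. They were taken by gene symbol, as every gene whose symbol begins with Nduf followed by a, b, c, s or v and a digit, with Uqcr, with Cox and a digit from 4 to 8, or with Atp5, and the genes Sdha to Sdhd. The rule reads symbols and no measured value, except that a gene with several probe sets was represented by the one brightest on average over the 18 arrays. Of the 81 members, 72 are subunits found in most tissues, with 33 in complex I, 4 in complex II, 8 in complex III, 10 in complex IV and 17 in complex V. The other 9 are tissue or testis isoforms and paralogs of complex IV subunits, and they are described apart.

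Complex I oxidises NADH and complex II oxidises succinate, and both pass electrons through ubiquinone to complex III. Complex III hands them on through the mobile carrier cytochrome c to complex IV, which reduces oxygen. Complexes I, III and IV pump protons across the inner membrane, and complex V, the ATP synthase, lets them flow back to make ATP. Pluripotent stem cells are known for leaning on glycolysis, and respiration is commonly reported to rise as they differentiate.

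RNA came from mouse stem cell cultures in 6 groups with 3 arrays each. Undifferentiated embryonic stem (ES) cells and undifferentiated adult stem cells, which the series title places in the germline, were each measured in a 129SV background and in a Stra8-EGFP/Rosa26 background, called Stra8 here. Differentiated ES and differentiated adult cells were measured in the 129SV background alone. The labels call the 3 samples of a group biological replicates, and they do not state how cells were differentiated, whether feeder cells were present, or how many lines or clones stand behind a group. What the p-values weigh is thus the spread between these samples, which may be technical. Values are log2 signals from Affymetrix Mouse Gene 1.0 ST arrays, and a difference of 1 on this scale is 2-fold. Genes passed the test, or were called, where limma gave an adjusted p under 0.05 (Benjamini-Hochberg over all 19938 genes), and each standard error (SE) comes from that fit with 3 arrays per group.

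The cells were checked against marker lists. Pluripotency markers had mean levels of 11.68 to 12.09 on the 12 arrays of undifferentiated cells, against 9.39 to 9.59 in differentiated ES and 10.06 to 10.22 in differentiated adult cells, and 8 of 8 fell on differentiation of either origin. Markers of fibroblasts, a type used as feeder cells, differed between all groups. In 129SV their mean over 11 genes ranged over 11.45 to 11.50 for ES and 10.40 to 10.46 for adult cells, and after differentiation over 8.80 to 8.87 and 9.55 to 9.63. In Stra8 the ES arrays were at 10.08 to 10.14 and the adult arrays at 10.92 to 10.96. No scanner output was used, so no marker can be called absent. Differentiated ES replicate 3 stood apart, with a mean correlation of 0.9915 to the other arrays of its group, against 0.9938 to 0.9978 for the other arrays. In bulk RNA, fewer cells of a type and less RNA per cell cannot be told apart.

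The promoters of 3 subunits are shown as examples, chosen after the results and the matches were seen. Ndufb7 and Uqcr11 were higher in adult than in ES cells of 129SV and their windows hold several of the core sequences searched, and Ndufs4 was lower there. Other genes could have been shown, since Uqcr10 and Ndufb10 were also higher and their windows hold none of these cores. The sequences are from RefSeq on mouse GRCm38.p6 and run 5′ to 3′ along the gene, from 250 bases before the annotated start through the first 30 bases of the transcribed part. Capitals mark matches to short core sequences of factors known to act on respiratory genes or of the TATA box. In Ndufb7 (chr8:83566508-83566787, plus strand) the ETS core CCGGAAG begins at position -20 from the annotated start, and TATAAA lies on the opposite strand from -235. In Uqcr11 (chr10:80406792-80407071, minus strand) the ETS core begins at -66 and the NRF1 core GCGCATG, on the opposite strand, spans the start. In Ndufs4 (chr13:114388065-114388344, minus strand) the printed stretch holds none of the cores searched, and a YY1 core begins past it at position 35.
Ndufb7: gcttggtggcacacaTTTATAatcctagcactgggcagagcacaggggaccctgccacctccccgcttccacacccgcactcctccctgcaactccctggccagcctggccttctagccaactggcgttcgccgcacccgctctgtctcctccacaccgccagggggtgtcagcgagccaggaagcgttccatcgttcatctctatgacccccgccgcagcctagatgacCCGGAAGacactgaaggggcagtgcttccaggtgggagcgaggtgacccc
Uqcr11: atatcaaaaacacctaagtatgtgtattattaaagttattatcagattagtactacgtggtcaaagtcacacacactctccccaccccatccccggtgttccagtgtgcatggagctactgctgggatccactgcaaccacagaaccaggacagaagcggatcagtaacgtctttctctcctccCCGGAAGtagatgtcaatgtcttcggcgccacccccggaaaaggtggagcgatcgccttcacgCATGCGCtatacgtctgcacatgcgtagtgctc
Ndufs4: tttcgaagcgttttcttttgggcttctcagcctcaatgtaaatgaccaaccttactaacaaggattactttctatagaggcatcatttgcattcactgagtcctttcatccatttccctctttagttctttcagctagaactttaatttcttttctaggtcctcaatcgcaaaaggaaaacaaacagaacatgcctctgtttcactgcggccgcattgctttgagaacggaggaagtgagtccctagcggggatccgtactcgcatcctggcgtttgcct

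RefSeq promoter windows of 300 bases, which reach 50 bases past the start, were given for 66 of the 81 members, 61 of them subunits. Both strands were searched. Each core was counted on its own, and matches may overlap, since the ETS core ends with the letters that begin the YY1 core. The ETS core, bound by GABPA among others, was found in 16 of 61 subunit windows (26.2%), against 9.12% of the 27025 genes with a window. The NRF1 core was found in 13 (21.3%, against 4.04%), the YY1 core AAGATGG in 9 (14.8%, against 6.48%) and the CREB core TGACGTC in 7 (11.5%, against 3.33%). TATAAA was found in 6 (9.84%, against 14.2%). Among subunits called higher in adult than in ES cells of 129SV, 31 had a window, of which 11 held the ETS core and 8 the NRF1 core. Among subunits called lower there, 8 had a window, and none held the ETS or the NRF1 core. Among those that did not pass the test, 5 of 22 held the ETS core and 5 the NRF1 core. A match of letters is a description of the window and not a binding site, and these counts were not tested.

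The level of each complex was first set out array by array, as the median over its subunits after each gene was centred on its own mean over the 18 arrays. Adult 129SV cells stood highest for all 5 complexes, with each of their 3 arrays above every array of the other groups. The gap was widest for complexes III and IV. For complex IV the adult 129SV arrays were at 0.35 to 0.42, and no other array exceeded 0.14. Differentiated ES cells were lowest for complex V, with arrays at -0.27 to -0.18, and overlapped differentiated adult cells there. For complexes I and IV each of their arrays lay below every array of the other groups, though the closest arrays nearly met. In complex IV those were at -0.183 and -0.176. Counted gene by gene, the highest group mean of 44 of the 72 subunits was in adult 129SV cells, of 15 in ES 129SV and of 7 in adult Stra8 cells. The lowest group mean was in differentiated ES cells for 39 subunits, in adult Stra8 cells for 12 and in differentiated adult cells for 11. Adult 129SV cells held the lowest mean of 2 subunits, and ES 129SV cells that of none.

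**Figure D1:**
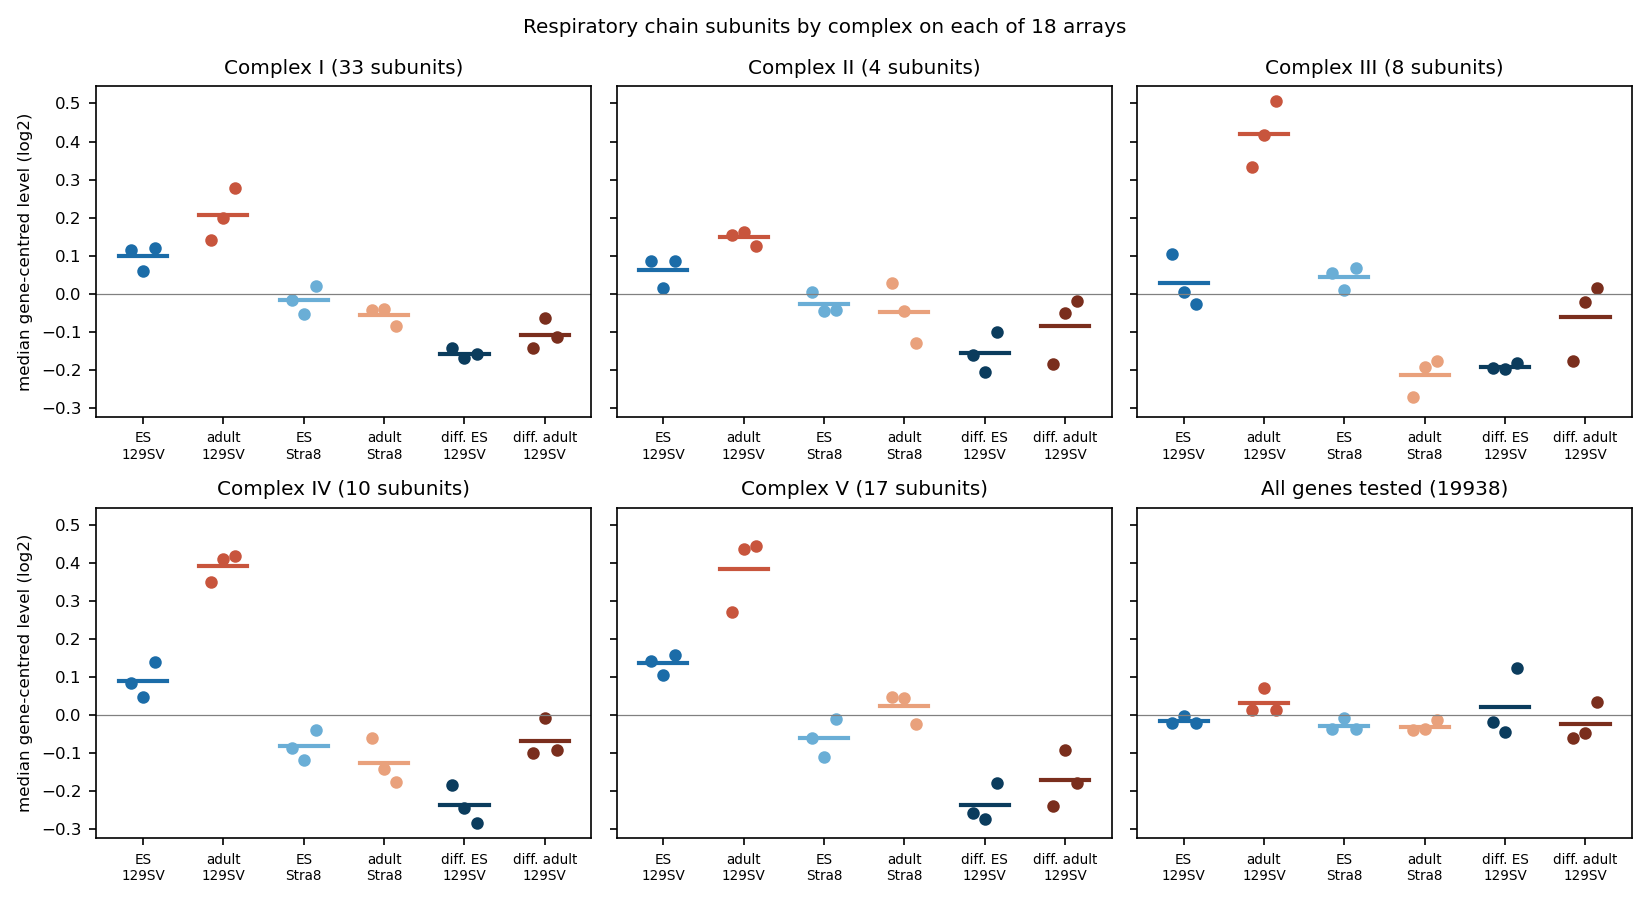
Median gene-centred log2 level of the subunits of complexes I to V and of all 19938 genes tested (vertical axis, log2) in each of the 6 groups (horizontal axis); each point is 1 array and each line is a group mean of 3 arrays. Adult 129SV arrays lie above all others for each complex, most clearly for III and IV, while the medians of all genes lie between -0.06 and 0.13.

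Adult and ES cells of 129SV were compared to ask how far the 2 stem cell types resemble each other. Of the 81 members, 36 were higher in adult cells, 12 were lower and 33 did not pass the test. Over all genes, 23% were called higher and 23.1% lower. The median difference of the members was 0.13, against 0.06 for all genes. When genes dim in every group were left out, meaning that all 6 group means lay under the median of all values (7.29), 37 of 79 members were higher, against 32.3% of the remaining genes. The fibroblast markers were lower in adult cells for 10 of 11 genes, and their part in the result was not tested.

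Complex I divided by subunit, with 15 of 33 higher and 6 lower in adult cells. Ndufb7, an accessory subunit of the membrane arm, read 11.04, 10.97 and 11.04 in adult cells and 9.96, 9.82 and 9.87 in ES cells. The arrays did not overlap, and the difference was 1.13 (SE 0.06, adjusted p = 9.27e-11). Ndufb10, also of the membrane arm, was at 8.01, 8.18 and 8.22 against 7.10, 7.31 and 7.20, higher by 0.93 (SE 0.07, adjusted p = 1.43e-08). Its mean in ES 129SV cells (7.20) and every array of both Stra8 groups lay below 7.29, the median of all values. No background level was available for them, which holds for each comparison of Ndufb10 with those groups. Other accessory subunits followed, with Ndufa5 higher by 0.84, Ndufa7 by 0.83 and Ndufa11 by 0.55 (adjusted p = 1.92e-05, 9.60e-07 and 1.92e-06).

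The lower complex I subunits included Ndufs1, Ndufs4, Ndufv3 and Ndufa10. Ndufs1, which carries iron-sulfur clusters in the arm that binds NADH, read 11.14, 11.11 and 11.17 in adult cells against 11.77, 11.74 and 11.61 in ES cells. Every adult array was below every ES array, with a difference of -0.57 (SE 0.07, adjusted p = 5.46e-06). Ndufs4, an accessory subunit of the same arm, was at 8.71, 8.77 and 8.99 against 9.37, 9.33 and 9.43, a difference of -0.55 (SE 0.08, adjusted p = 2.14e-05). Ndufa10 differed by -0.29 and Ndufv3 by -0.27 (adjusted p = 0.000597 and 0.00166). Ndufv1, the subunit that binds NADH, was higher at 0.16 (adjusted p = 0.0314). That call was lost with centred arrays (0.119), in a fit on these 6 arrays (0.0601) and without ES replicate 2 (0.148), adult replicate 1 (0.0804) or adult replicate 3 (0.0756). The NADH-binding arm did not move one way. Ndufa12, Ndufs6 and Ndufa2, also of that arm, were higher at 0.32, 0.21 and 0.18 (adjusted p = 0.00957, 0.027 and 0.0296), and Ndufv2 differed by 0.10 without passing. The call of Ndufa12 was lost without adult replicate 1 (0.0546). Those of Ndufs6 and Ndufa2 were lost with centred arrays (0.0763 and 0.0976), in a fit on these 6 arrays (0.0856 and 0.0753) and without ES replicate 1 (0.156 and 0.117), ES replicate 2 (0.0845 and 0.109) or adult replicate 3 (0.0822 and 0.126). Ndufs6 was also lost without adult replicate 2 (0.0717).

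In complex III, 4 small subunits were higher in adult 129SV cells and 1 core protein was lower. Uqcr10 read 9.16, 9.39 and 9.43 in adult and 8.38, 8.23 and 8.37 in ES cells, higher by 1.00 (SE 0.07, adjusted p = 1.01e-08). Uqcr11 was higher by 0.97 (SE 0.09, adjusted p = 2.47e-07), Uqcrq by 0.90 and Uqcrh, the hinge protein that helps dock cytochrome c, by 0.67 (adjusted p = 7.63e-07 and 2.69e-06). The core protein Uqcrc2 was at 10.52, 10.56 and 10.55 in adult and 10.92, 10.97 and 10.92 in ES cells, a difference of -0.39 (SE 0.05, adjusted p = 1.42e-05). Its partner Uqcrc1 differed by -0.18 and the Rieske iron-sulfur protein Uqcrfs1 by 0.17, and neither passed the test (95% intervals, not adjusted for the number of genes, -0.36 to -0.01 and 0.01 to 0.33).

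In complex IV, 7 of 10 subunits were higher and none was lower. Cox6b1, a subunit on the side facing the intermembrane space, read 11.75, 12.03 and 11.82 in adult and 11.07, 10.99 and 11.02 in ES cells, higher by 0.84 (SE 0.08, adjusted p = 1.29e-07). Cox4i1, the widely expressed form of subunit IV, was higher by 0.71 and Cox5a by 0.61 (adjusted p = 1.99e-07 and 1.38e-07). Cox7a2 differed by 0.03 with overlapping arrays, and the 95% interval was -0.12 to 0.19.

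In complex V, 7 of 17 subunits were higher and 3 lower. The higher ones were small or stalk subunits, among them the ring gene Atp5g1 at 0.81, the small F1 subunit Atp5e at 0.66 and the stalk subunit Atp5o at 0.58 (adjusted p = 1.24e-05, 1.69e-06 and 5.44e-05). The large F1 subunits were not among them, and Atp5a1, the alpha subunit, was lower at -0.16 (adjusted p = 0.0124), and Atp5b, the catalytic beta subunit, differed by -0.01 with a 95% interval of -0.13 to 0.10. The stalk subunits Atp5j and Atp5c1 were also lower, so stalk subunits stood on both sides. Their means were 11.46 and 11.92 in adult against 11.62 and 12.04 in ES cells. These calls were lost under 4 and 6 alternatives (limma adjusted p up to 0.0863 and 0.138). In complex II the iron-sulfur subunit Sdhb was higher by 0.56 (SE 0.08, adjusted p = 2.28e-05), with arrays at 9.79, 9.74 and 9.98 against 9.34, 9.20 and 9.29. The flavoprotein Sdha was lower at -0.20 (adjusted p = 0.00383), and quantile normalization ended that call (adjusted p = 0.124).

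**Figure D2:**
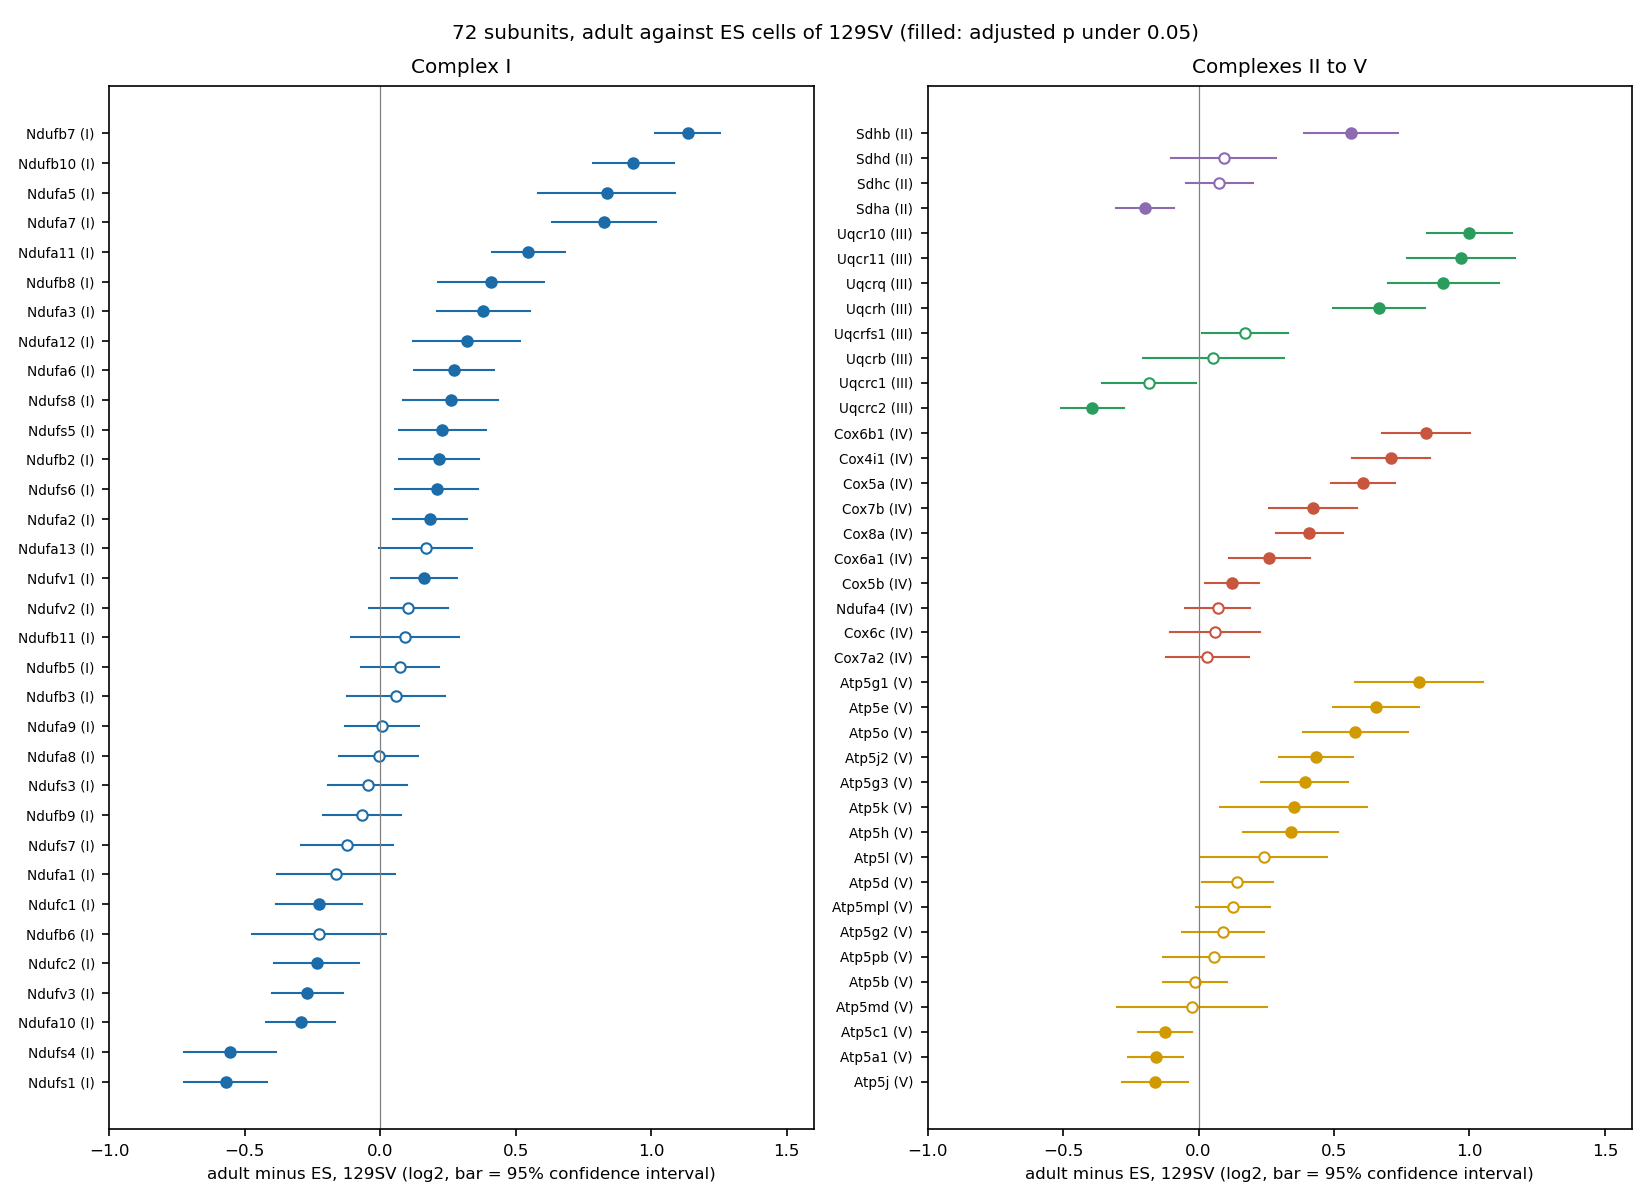
Difference between adult and ES cells of 129SV (horizontal axis, log2, positive is higher in adult cells) for the 72 subunits, sorted within each complex; bars are 95% confidence intervals from limma with 3 arrays per group, and filled points passed the test. Complex IV has no filled point below 0, while complex I runs from Ndufb7 at 1.13 to Ndufs1 at -0.57.

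**Figure D3:**
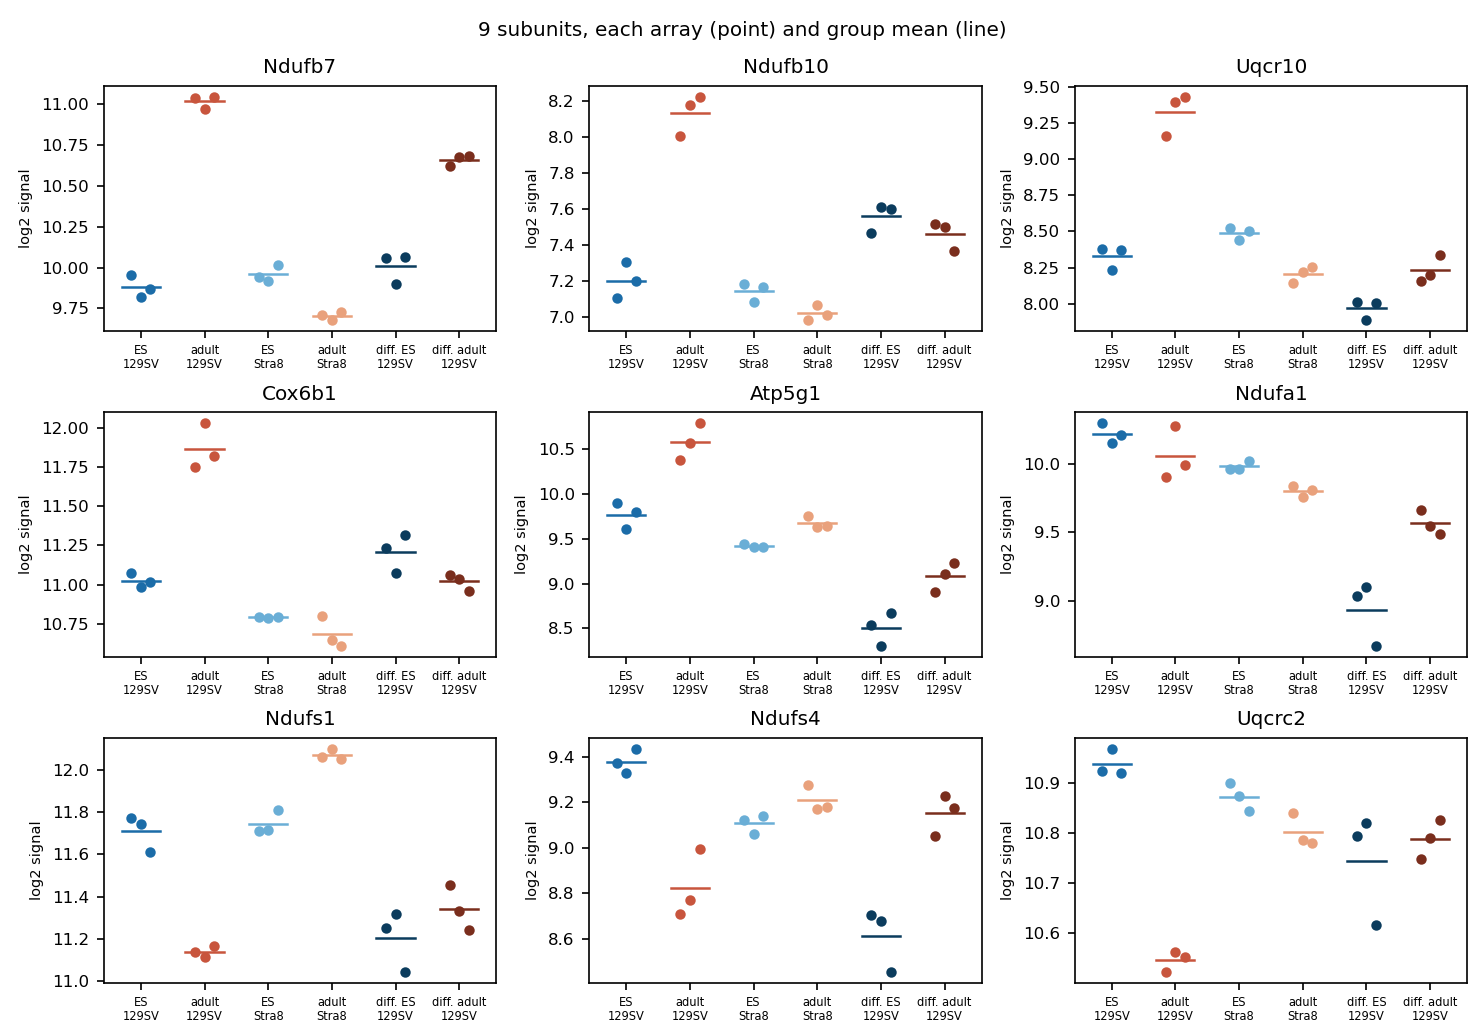
Log2 signal (vertical axis, a separate scale for each gene) of 9 subunits in the 6 groups (horizontal axis); each point is 1 array and each line a group mean. Ndufb7, Ndufb10, Uqcr10, Cox6b1 and Atp5g1 are highest in adult 129SV cells, while Ndufs1 and Uqcrc2 are lowest there.

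Differentiation was followed in both origins of the 129SV background. In ES cells, 46 of 81 members fell (56.8%), 6 rose and 29 did not pass the test, while over all genes 27.3% were called lower and 27.9% higher. The median change was -0.23, against 0.05 for all genes. Without differentiated ES replicate 3, 45 members fell and 5 rose, against 28.9% and 26% of all genes. The count of 6 that rose became 10 without differentiated ES replicate 2, 10 with quantile normalization and 13 with array weights. In adult cells, 58 members fell (71.6%) and 3 rose, against 32.2% and 27.5% of all genes, and the medians were -0.40 for the members and -0.08 for all genes. With genes dim in every group left out, 48 of 79 members fell in ES cells against 40.5% of genes, and 61 of 79 in adult cells against 40.6%. Centring each array on its median moved the median of all genes to -0.08 in ES and -0.18 in adult cells, and the members' medians to -0.36 and -0.50. Other measured lists moved beside these counts. Proliferation markers fell for 6 of 7 genes in ES and 5 of 7 in adult cells, fibroblast markers fell for 11 of 11 and 8 of 11, and endoderm and epithelium markers rose for 9 of 12 and 7 of 12. In the other direction, 1 proliferation marker rose in each origin and 3 fibroblast markers rose in adult cells. Of the endoderm and epithelium markers, 1 fell in ES and 2 fell in adult cells. The part of any of these lists in the result was not tested.

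Nearly all of complex V fell. In ES cells 15 of its 17 subunits fell and in adult cells 16 did, with none called higher in either. Atp5g1 read 9.90, 9.61 and 9.80 in ES cells and 8.54, 8.31 and 8.67 after differentiation, a change of -1.26 (SE 0.11, adjusted p = 3.62e-08). In adult cells it went from 10.39, 10.57 and 10.79 to 8.91, 9.11 and 9.23, a change of -1.50 (SE 0.11, adjusted p = 3.80e-09). The groups were far apart in both origins, and this was the largest fall of any subunit in adult cells. The alpha subunit Atp5a1 fell in both origins, at -0.53 in ES and -0.24 in adult cells (adjusted p = 4.51e-08 and 0.000402). The beta subunit Atp5b fell by 0.29 (SE 0.06, adjusted p = 0.00023) in ES cells. In adult cells it fell by 0.16 (SE 0.06, adjusted p = 0.0221). The adult call was lost with quantile normalization (0.332), in a fit on these 6 arrays (0.105), with array weights (0.0655) and without adult replicate 3 (0.0909) or differentiated adult replicate 1 (0.0563) or 3 (0.096). Among stalk subunits, Atp5h changed by -0.68 in ES and -0.52 in adult cells, and Atp5o by -0.58 and -0.93. Atp5l, which helps complex V form dimers, fell by 0.67 in ES cells, and Atp5k, another such subunit, fell by 0.88 in adult cells.

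Complex I fell in 17 of 33 subunits in ES cells and in 22 in adult cells, and 2 rose in each. Ndufa1, a small membrane-anchored accessory subunit, had the largest fall of the complex in ES cells, from 10.29, 10.15 and 10.21 to 9.04, 9.10 and 8.68, a change of -1.28 (SE 0.10, adjusted p = 1.11e-08). In adult cells it went from 9.90, 10.28 and 9.99 to 9.66, 9.55 and 9.49, a change of -0.49 (SE 0.10, adjusted p = 0.000559). The groups did not overlap in either origin, although the lowest adult array at 9.90 came close to the highest differentiated one at 9.66. Ndufb6 changed by -0.98 in ES and -0.56 in adult cells, and the NADH-binding Ndufv1 by -0.60 and -0.67. The accessory subunits Ndufa7, Ndufa11 and Ndufs6 fell in adult cells, at -0.95, -0.85 and -0.77. The 2 that rose in ES cells were Ndufa6 by 0.62 (SE 0.07, adjusted p = 7.10e-07) and Ndufb10 by 0.36 (SE 0.07, adjusted p = 0.000345), both accessory subunits.

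Ndufs4 and Ndufs1 went in opposite directions in the 2 origins. Ndufs4 fell by 0.77 (SE 0.08, adjusted p = 2.81e-07) in ES cells, from 9.37, 9.33 and 9.43 to 8.70, 8.68 and 8.45. In adult cells it rose by 0.33 (SE 0.08, adjusted p = 0.00197), from 8.71, 8.77 and 8.99 to 9.05, 9.23 and 9.17, so that adult cells started low and ended above differentiated ES cells. Ndufs1 fell by 0.51 (SE 0.07, adjusted p = 1.22e-05) in ES cells and rose by 0.20 (SE 0.07, adjusted p = 0.0229) in adult cells. The rise of Ndufs1 lost its call with centred arrays (adjusted p = 0.223), without adult 129SV replicate 2 (0.0639) and without differentiated adult replicate 1 (0.117).

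In complex III, 4 of 8 subunits fell in ES cells and 6 in adult cells. Uqcrb, which binds ubiquinone, fell by 0.62 in ES cells. Uqcrc1, a core protein, fell by 0.82 (SE 0.08, adjusted p = 1.59e-07) in ES cells and fell by 0.50 (SE 0.08, adjusted p = 5.12e-05) in adult cells. Uqcr10 fell by 0.36 in ES cells and fell by 1.10 in adult cells, where it went from 9.16, 9.39 and 9.43 to 8.16, 8.20 and 8.33 (adjusted p = 0.000495 and 1.09e-09). Uqcr11 fell by 1.04 (SE 0.09, adjusted p = 4.57e-08) in adult cells, while in ES cells it differed by -0.05 with a 95% interval of -0.25 to 0.15. Uqcrh rose by 0.49 (SE 0.08, adjusted p = 4.65e-05) in ES cells and fell by 0.32 (SE 0.08, adjusted p = 0.00197) in adult cells. Uqcrc2 fell by 0.19 in ES cells and rose by 0.24 in adult cells (adjusted p = 0.00574 and 0.000976). The fall of Uqcrc2 lost its call with quantile normalization (0.106) and in a fit on these 6 arrays (0.0738).

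Complex IV fell in 6 of 10 subunits in ES cells and in 9 in adult cells, and none rose. Cox7b fell by 0.62 (SE 0.08, adjusted p = 2.05e-06) in ES cells and fell by 0.98 (SE 0.08, adjusted p = 6.80e-09) in adult cells. Cox6c changed by -0.71 and -0.54. Cox4i1 changed by -0.30 and -0.50 (adjusted p = 0.0012 and 5.51e-06). Cox6b1 fell by 0.84 (SE 0.08, adjusted p = 4.96e-08) in adult cells, from 11.75, 12.03 and 11.82 to 11.06, 11.04 and 10.96. In ES cells it differed by 0.18 with overlapping arrays and did not pass the test (adjusted p = 0.058). In complex II, Sdhb changed by -0.31 in ES and -0.76 in adult cells (adjusted p = 0.0033 and 3.63e-07). In ES cells Sdha fell by 0.25 (adjusted p = 0.000421), and in adult cells it differed by 0.05 with a 95% interval of -0.05 to 0.16.

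The differentiation comparisons share no array, so their calls can be set beside each other. Of the members, 37 fell in both, which is 37 of the 46 that fell in ES and of the 58 that fell in adult cells. Over all genes, 67.6% of those that fell in ES cells also fell in adult cells, and 57.4% of those that fell in adult cells also fell in ES cells, so a large overlap is not particular to the members. None rose in both, Ndufb10 and Uqcrh rose in ES and fell in adult cells, and Ndufs1, Ndufs4 and Uqcrc2 did the reverse. Such opposite calls also occurred for 9% of the genes that rose and 13.1% of the genes that fell in ES cells. Across the 72 subunits the 2 changes correlated weakly (Pearson r = 0.21, Spearman rho = 0.17), given as a description because genes of 1 fit are not independent.

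**Figure D4:**
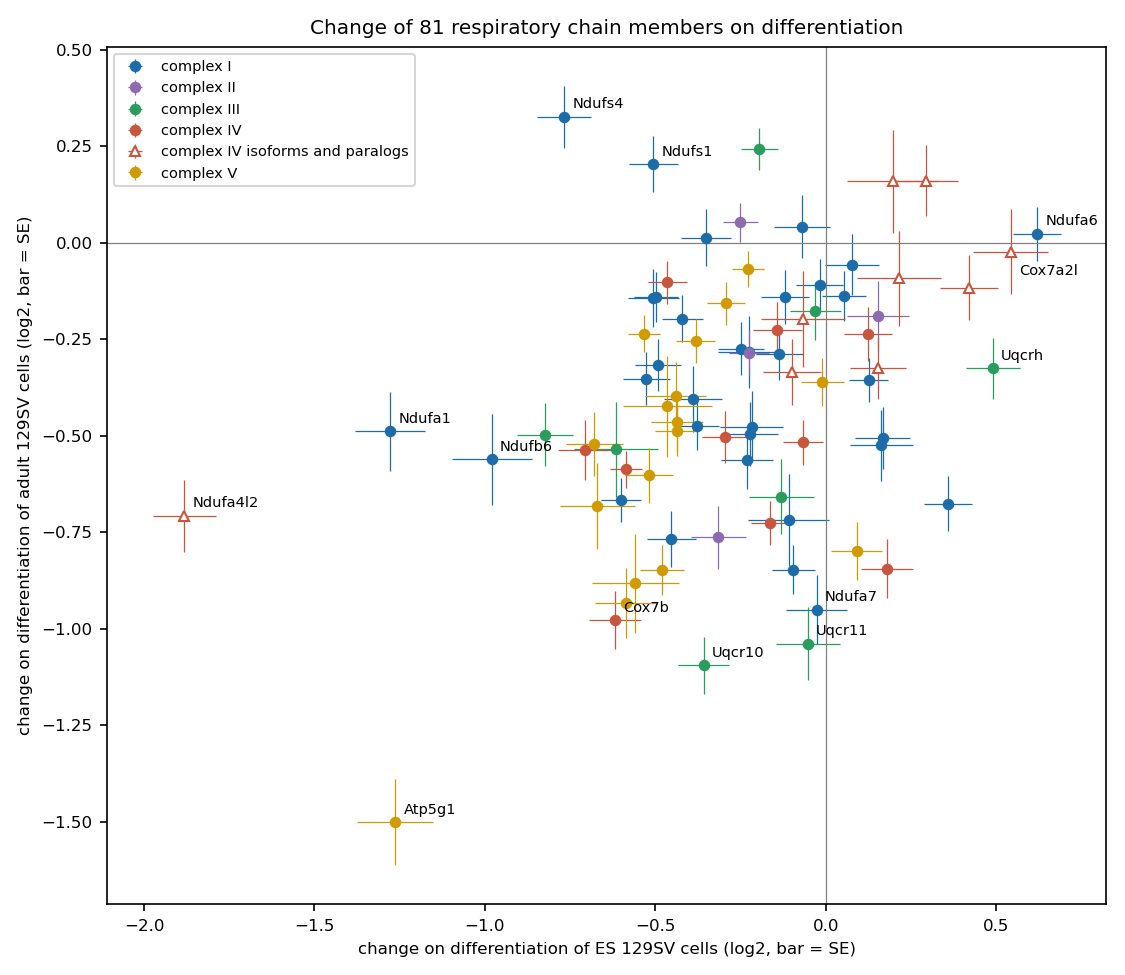
Change on differentiation of ES cells (horizontal axis, log2) against that of adult cells (vertical axis, log2) for the 81 members, with standard errors as bars and colours for complexes; open triangles are complex IV isoforms and paralogs. Most points lie left of and below 0, Atp5g1 is lowest in adult cells at -1.50, and Ndufs4 and Ndufs1 sit left of 0 and above it.

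The difference between both responses was tested as an interaction. It passed for 42 members, with the change more negative in adult cells for 28 and less negative or more positive for 14, against 21.5% and 24.2% of all genes. Quantile normalization gave 36 and 10. The adult change minus the ES change was -1.03 for Ndufb10, -1.02 for Cox6b1, -0.99 for Uqcr11 and -0.92 for Ndufa7. It was 1.17 for the paralog Ndufa4l2, 1.09 for Ndufs4, 0.79 for Ndufa1 and 0.71 for Ndufs1. Adjusted p ran from 3.93e-07 for Ndufb10 to 0.000312 for Ndufa1 among these. Of the 4 groups in this contrast, Ndufa4l2 had a mean above 7.29, the median of all values, in ES 129SV cells alone. The interaction shares its adult and ES 129SV arrays with the comparison of undifferentiated cells, in which Ndufb10 and Cox6b1 were higher and Ndufs4 and Ndufs1 lower in adult cells. Fibroblast markers differed in the same interaction, positive for 11 of 11, and their part was not tested.

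After differentiation, 15 members were higher in adult than in ES cells and 10 were lower, against 19.4% and 12.8% of all genes. The members' shares were thus close to those of all genes tested. Quantile normalization gave 14 and 15, a fit on these 6 arrays alone gave 9 and 3, and without differentiated adult replicate 1 there were 5 lower members. With genes dim in every group left out, 18 of 79 members were higher and 15 lower, against 32.1% and 18.9% of the remaining genes. There the share of higher members was below that of genes. Markers differed beside these counts. Pluripotency markers were higher in differentiated adult cells for 7 of 8 genes, proliferation markers for 6 of 7 and fibroblast markers for 10 of 11, and 1 fibroblast marker was lower. Endoderm and epithelium markers were lower for 8 of 12 and higher for 2. The part of these lists was not tested. Ndufb7 was higher in differentiated adult cells too, at 10.62, 10.67 and 10.68 against 10.06, 9.90 and 10.06, by 0.65 (SE 0.06, adjusted p = 2.03e-07). Ndufa1 was higher by 0.63, Atp5g1 by 0.58, Ndufs4 by 0.54 and Cox4i1 by 0.50 (adjusted p = 0.000159, 0.000701, 5.90e-05 and 2.24e-05). Ndufv3 was lower at -0.37 and Ndufa6 at -0.32 (adjusted p = 0.000193 and 0.00166).

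In the Stra8 background, 6 members were higher in adult than in ES cells and 12 were lower, against 13.2% and 15.1% of all genes, and the members' median was 0.00. Quantile normalization gave 11 and 10. The count of 18 rested on settings, with 33 called when only these 6 arrays were fitted, 35 with array weights and 11 without ES Stra8 replicate 3. The count of higher members was 3 without ES Stra8 replicate 2 or adult Stra8 replicate 1, and that of lower members 7 without ES Stra8 replicate 3. Ndufa10 was higher by 0.39 (SE 0.06, adjusted p = 9.57e-05) and Ndufs1 by 0.33 (SE 0.07, adjusted p = 0.00257) in adult cells, both of which were lower in adult cells of 129SV. Ndufs1 read 12.06, 12.10 and 12.05 in adult and 11.71, 11.71 and 11.81 in ES cells of Stra8. Ndufa6 was lower at -0.46, Ndufs5 at -0.42, Ndufb7 at -0.25 and Uqcr10 at -0.28 (adjusted p = 9.26e-05, 0.000526, 0.00265 and 0.00818). In complex IV, Cox4i1 was lower at -0.27 (SE 0.07, adjusted p = 0.00536).

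The effect of origin was compared between backgrounds as an interaction, and it passed for 44 members. It was lower in Stra8 for 32 and higher for 12, against 21.8% and 21.3% of all genes. Without adult Stra8 replicate 1, 7 were higher. Ndufb7 had the largest negative value at -1.39 (SE 0.08, adjusted p = 5.64e-10), followed by Uqcr10 at -1.28, Uqcrq at -1.22 and Ndufb10 at -1.06. Cox4i1 stood at -0.98, and Sdhb at -0.80. On the other side were Ndufa4l2 at 1.19, Ndufs1 at 0.90 (SE 0.10, adjusted p = 1.85e-06), Ndufa10 at 0.69 and Ndufs4 at 0.66. Here too, Ndufa4l2 means lay below 7.29 in all groups except ES 129SV, and no background level was available for them. Complex IV had 6 of 10 subunits lower in this contrast and none higher. The origin effects of the backgrounds share no array. Of the 36 members higher in adult 129SV cells, 10 were lower and 1 was higher in adult Stra8 cells, and of the 12 members lower in 129SV, 3 were higher in Stra8. Of all genes higher in adult 129SV cells, 30.2% were lower and 7.59% higher in adult Stra8 cells, and of those lower, 34.1% were higher, so the members' counts were near those of all genes. Across 72 subunits the 2 effects correlated at r = -0.39 (rho = -0.40), again as a description over genes. Fibroblast markers changed sign as well, being lower in adult 129SV cells for 10 of 11 and higher in adult Stra8 cells for 11 of 11, and their part was not tested.

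The backgrounds were also compared within each origin. Among adult cells, 54 members were lower in Stra8 than in 129SV and 6 were higher, against 26.8% and 24.2% of all genes. The difference, Stra8 minus 129SV, was -1.34 for Uqcr11, -1.31 for Ndufb7, -1.18 for Cox6b1, -1.12 for Uqcr10 and -1.11 for Uqcrh. The adjusted p of these 5 lay at or below 6.41e-09. In complex II Sdhb was lower by 0.82 (SE 0.08, adjusted p = 2.92e-07), and in complex IV Cox4i1 was lower by 0.88 (SE 0.07, adjusted p = 1.35e-08). Ndufs1 was higher by 0.93 (SE 0.07, adjusted p = 1.61e-08) and Ndufa10 by 0.70 (SE 0.06, adjusted p = 4.50e-08). Ndufs4, Uqcrc2 and Sdha were higher by 0.39, 0.26 and 0.23. This comparison shares the adult 129SV arrays with the one against ES cells, in which Ndufb7 stood at 1.13, Uqcr11 at 0.97 and Ndufs1 at -0.57.

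Among ES cells, 33 members were lower in Stra8 and 3 were higher, against 20% and 21.3% of all genes. Complex V made up 11 of the 33, with Atp5md at -0.66 (SE 0.13, adjusted p = 0.000559) and the ring gene Atp5g2 at -0.51 (SE 0.07, adjusted p = 1.65e-05). Ndufa8, an accessory subunit of complex I, was lower by 0.68 (SE 0.07, adjusted p = 4.19e-07), and Cox7a2 was lower by 0.52 (SE 0.07, adjusted p = 1.65e-05). Uqcrq, Ndufb8 and Ndufv2 were the 3 higher members, at 0.28, 0.24 and 0.21. Centring each array on its median left none of these 3 called (adjusted p = 0.0801, 0.131 and 0.0933) and gave 36 lower members. Ndufb8 was also lost without any 1 of the 6 arrays (adjusted p = 0.0548 to 0.138). Uqcrq was lost with quantile normalization (0.0544) and without ES 129SV replicate 2 (0.095) or 3 (0.0624) or ES Stra8 replicate 1 (0.0782) or 3 (0.0696). Ndufv2 was lost without replicate 3 of ES 129SV (0.0897) or of ES Stra8 (0.0884). Fibroblast markers were lower in ES Stra8 than in ES 129SV cells for 11 of 11, and their part was not tested.

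Among the isoforms and paralogs, Ndufa4l2, a paralog of Ndufa4 known to be induced by hypoxia, had the widest range of group means of all 81 members. Its arrays read 8.45, 8.33 and 8.41 for ES and 6.96, 7.10 and 6.90 for adult cells of 129SV. The Stra8 arrays read 6.62, 6.68 and 6.60 for ES and 6.44, 6.53 and 6.26 for adult cells. After differentiation the values were 6.32, 6.57 and 6.65 for ES and 6.13, 6.42 and 6.29 for adult cells. ES 129SV cells stood alone above 8, adult 129SV cells lay below them and above the other 4 groups, and those 4 lay close together. The means of all groups except ES 129SV were below 7.29, the median of all values on the arrays, and no background level was available for them. It was lower by 1.41 (SE 0.09, adjusted p = 2.86e-09) in adult than in ES 129SV cells. It fell by 1.88 (SE 0.09, adjusted p = 2.38e-11) on differentiation of ES cells, fell by 0.71 (SE 0.09, adjusted p = 4.80e-06) on that of adult cells, and was lower by 1.76 (SE 0.09, adjusted p = 1.70e-10) in Stra8 than in 129SV ES cells. Fibroblast markers were also highest in ES 129SV cells, and in adult Stra8 cells they were higher than in adult 129SV cells. Their part in the Ndufa4l2 values was not tested. Ndufa4 itself, which sits in complex IV, fell by 0.46 (SE 0.06, adjusted p = 1.73e-06) in ES cells and differed by -0.10 in adult cells without passing the test.

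Of the forms known from heart and skeletal muscle, Cox7a1 was highest in adult 129SV cells at 8.12, 8.12 and 8.15, against 7.83, 7.81 and 7.89 in ES 129SV, a difference of 0.28 (SE 0.08, adjusted p = 0.0093). It fell by 0.32 (SE 0.08, adjusted p = 0.00243) on differentiation of adult cells, and in both Stra8 groups it was lower than in 129SV, at -0.37 in ES and -0.59 in adult cells (adjusted p = 0.00136 and 1.17e-05). Cox8b rose by 0.42 (SE 0.08, adjusted p = 0.000403) on differentiation of ES cells and was higher by 0.46 (SE 0.08, adjusted p = 0.000243) in adult than in ES 129SV cells. Its group means of 6.41 to 6.87 all lay below 7.29 and were treated as dim. Cox6a2 did not pass any of the 7 comparisons of group pairs, and its differentiated ES arrays at 7.66, 7.78 and 8.26 spread widely. Of 13 markers of heart and skeletal muscle, 4 rose and 1 fell on differentiation of ES cells, and 4 rose and 5 fell on that of adult cells. Over all genes 27.9% rose and 27.3% fell in ES cells, and 27.5% rose and 32.2% fell in adult cells.

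Of the testis forms, Cox6b2 was lowest in adult Stra8 cells, at 8.12, 7.96 and 7.81, against 8.60, 8.49 and 8.57 in ES Stra8 and 8.33, 8.60 and 8.45 in adult 129SV cells. The differences were -0.59 (SE 0.09, adjusted p = 0.000126) and -0.50 (SE 0.09, adjusted p = 0.000235). On differentiation of ES cells it rose by 0.29 (SE 0.09, adjusted p = 0.012), a call lost with centred arrays (adjusted p = 0.137) and without differentiated ES replicate 3 (0.056). Cox8c and Cox7b2 passed none of the 7 comparisons, and Cox7b2, at 4.75 to 5.57 on all 18 arrays, was dim in every group. Male germ cell markers had a mean of 6.27 to 6.60 over 12 genes on all arrays. Single genes of that list differed more than this mean. They ran from -1.45 to 2.65 for Stra8 minus 129SV in ES cells, and from -0.71 to 2.69 on differentiation of adult cells. Cox4i2, a form known from lung and from low oxygen, was lower in Stra8 than in 129SV cells, at -0.31 in ES and -0.27 in adult cells (adjusted p = 0.00805 and 0.0159). The adult call was lost without adult 129SV replicate 2 (0.101) or adult Stra8 replicate 1 (0.0829). Every Stra8 array of Cox4i2 lay below 7.29, the median of all values, and its highest group mean was 7.35. No background level was available for these values.

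Cox7a2l, which helps hold complexes III and IV together, was highest in differentiated ES cells at 9.87, 9.86 and 9.95, against 9.40, 9.20 and 9.45 in ES cells, a rise of 0.54 (SE 0.11, adjusted p = 0.000417). In adult cells the change was -0.02 with a 95% interval of -0.26 to 0.21. The interaction was -0.57 (SE 0.16, adjusted p = 0.00703). The second probe set of Cox7a2l rose by 0.27 in ES cells (adjusted p = 0.00193) and differed by 0.16 in adult cells (0.0504), and its interaction of -0.12 did not pass the test (0.325).

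**Figure D5:**
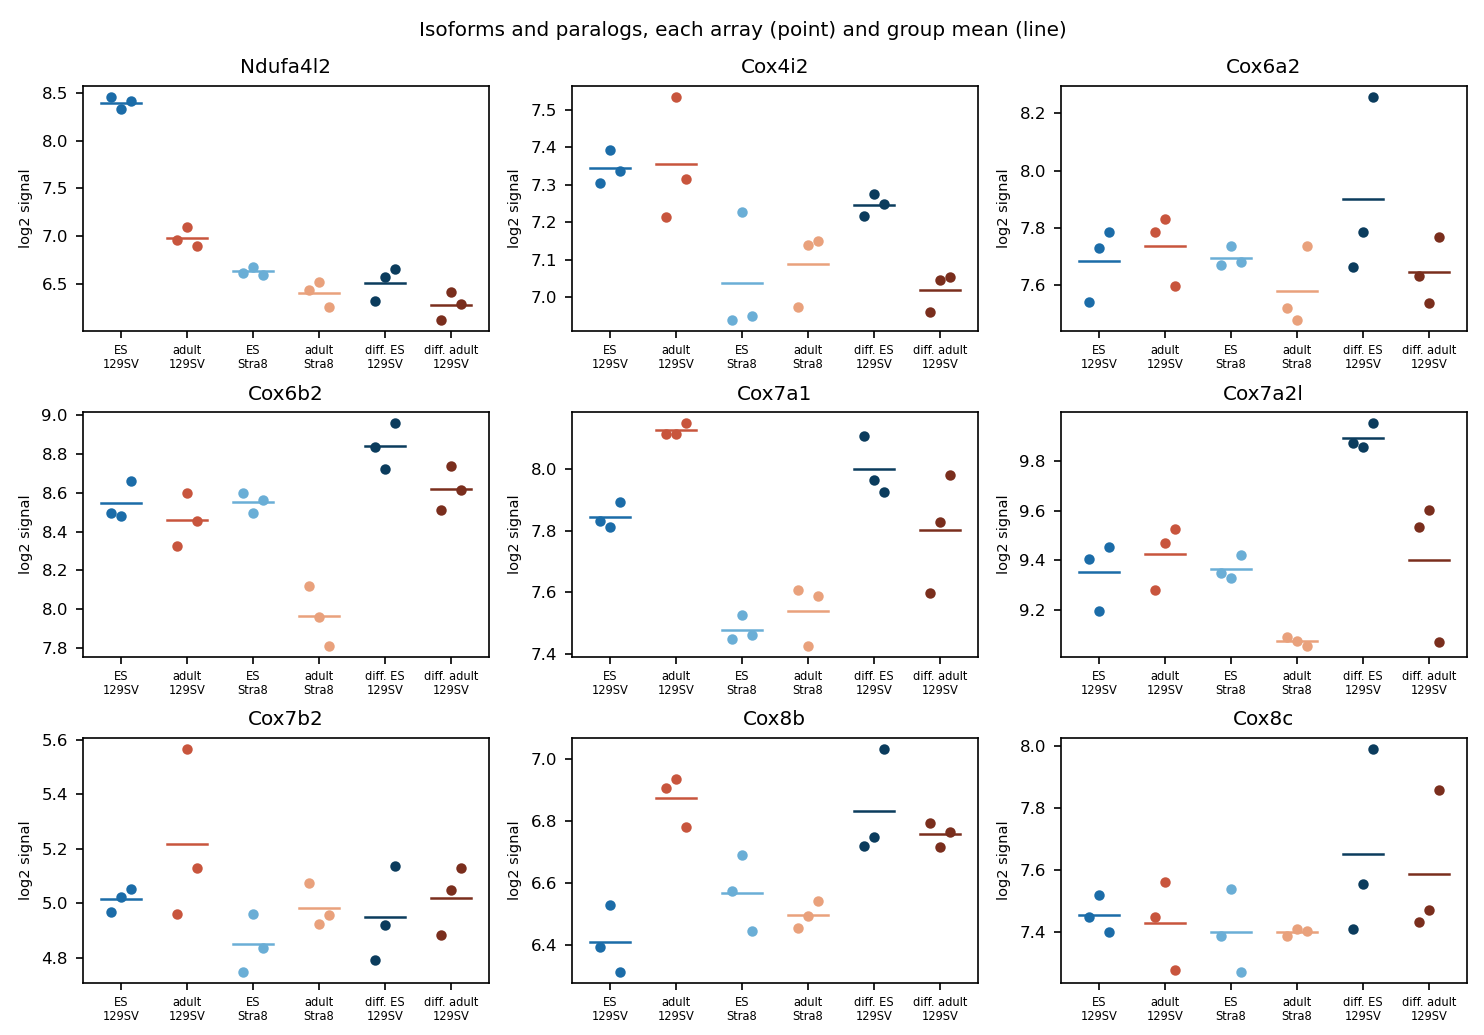
Log2 signal (vertical axis, a separate scale for each gene) of the 9 isoforms and paralogs in the 6 groups (horizontal axis); each point is 1 array and each line a group mean. Ndufa4l2 is above 8 in ES 129SV cells alone, Cox7a2l is highest in differentiated ES cells, and Cox6b2 is lowest in adult Stra8 cells.

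The ring of complex V is made of c subunits from 3 genes that encode the same mature protein. Atp5g1 differed between adult and ES 129SV cells by 0.81 and Atp5g3 by 0.39, while Atp5g2 differed by 0.09 with a 95% interval of -0.06 to 0.24. All 3 fell on differentiation of both origins. The changes in adult cells were -1.50 for Atp5g1, -0.60 for Atp5g2 and -0.46 for Atp5g3, and in ES cells -1.26, -0.52 and -0.44. Only the values of each gene across groups are compared, since a level cannot be set against that of another probe set.

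The partners of the chain were taken as lists. Cycs, the cytochrome c of body cells, fell by 0.98 (SE 0.14, adjusted p = 1.69e-05) on differentiation of ES cells and fell by 0.92 (SE 0.14, adjusted p = 3.26e-05) on that of adult cells. Cyc1, the cytochrome c1 of complex III, changed by -0.80 and -0.80. Cyct, the testis form of cytochrome c, changed by -1.30 and -0.72 in the same cells. It was higher in adult than in ES cells of Stra8 by 2.14 (SE 0.14, adjusted p = 1.21e-08), and higher by 2.68 (SE 0.14, adjusted p = 1.20e-10) in adult Stra8 than in adult 129SV cells. In 129SV the difference between adult and ES cells was 0.17 (adjusted p = 0.323).

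Assembly factors were counted beside the shares of all genes, of which 27.3% fell and 27.9% rose in ES cells and 32.2% fell and 27.5% rose in adult cells. For complex I, 7 of 14 fell and 1 rose in ES cells, and 6 fell and 2 rose in adult cells. Ndufaf2 changed by -1.36 in ES and -0.96 in adult cells, and Ecsit by -1.01 and -1.15, while Timmdc1 rose by 0.38 in adult cells. For complex IV, 7 of 19 fell and 5 rose in ES cells, and 8 fell and 3 rose in adult cells. Lrpprc, which stabilises mitochondrial messages, changed by -1.21 and -0.72. The copper chaperone Cox17 changed by -0.50 and -0.81, and Surf1 rose by 0.36 in adult cells. For complex V, Atpaf2 changed by -1.03 and -0.56 and Tmem70 rose by 0.38 and 0.34. Of the assembly factors of complex II, 2 of 4 fell in each origin, and of those of complex III, 2 of 6, and none rose.

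Of 22 regulators of mitochondrial genes measured, 11 fell and 6 rose in ES cells, and 9 fell and 5 rose in adult cells. The coactivator Ppargc1a rose by 0.82 and 1.04, while Tfam, which packages and transcribes mitochondrial DNA, changed by -0.83 and -0.69. Esrrb, also a pluripotency factor, changed by -2.27 and -1.68. Nrf1 and Gabpa, whose core sequences were searched above, fell as well, at -0.45 and -0.56 in ES and -0.50 and -0.50 in adult cells. Between adult and ES cells of 129SV, Nrf1 was higher by 0.28 (adjusted p = 0.00133), Gabpa differed by -0.09 without passing, and Pprc1, a relative of Ppargc1a, was higher by 0.93. Of 17 genes of the citric acid cycle and pyruvate entry, which supply the chain with electrons, 8 fell and 3 rose in ES cells, and 4 fell and 5 rose in adult cells. None of the 13 genes encoded in mitochondrial DNA was measured by a probe set of its own symbol, so the complexes are described here from their nuclear parts.

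Many of these genes have processed copies elsewhere in the genome that an array may not tell apart. Of the members, 16 had several probe sets of their own symbol, 40 in all, and no member had probe sets called in opposite directions in any of the 9 comparisons. In each comparison, 13 to 15 of the 16 had all or none of their probe sets called. For the rest, the probe sets of a gene differed in whether they passed the test. For Uqcr11 the second probe set differed by 0.98 between adult and ES cells of 129SV, and for Atp5g1 by 0.71. Cox7c and Ndufb4 share their probe sets with other symbols and were not analysed here.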

How the data were processed

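Total RNA (300 ng per array, per the labels' protocols) was hybridised to Affymetrix Mouse Gene 1.0 ST arrays. Per the submitters' processing notes, Expression Console (Affymetrix) and RMA were used, and the values the authors deposited are on the log2 scale. RMA summarises probes on all arrays normalised together, and whether all 18 arrays were so treated is not given in the sources used here. No counts exist for arrays, and the number of arrays limits the precision. Of 35556 probe sets, 21789 carried 1 gene symbol in the platform annotation, 1621 several and 12146 none, and the first gave 19938 genes, each by its probe set with the highest mean. All 81 members matched RefSeq by gene identifier.

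Values were tested with lmFit and eBayes in limma 3.58.1 (R 4.3.3), over all 19938 genes and 18 arrays with 1 mean per group, 12 residual degrees of freedom and no block. There were 7 comparisons of group pairs and 2 interactions, each adjusted by Benjamini-Hochberg. The method was tested on simulated data for the differentiation of ES cells, where 144 of 200 genes changed by 0.5 and 198 of 200 changed by 1 on the log2 scale were recovered, and 0 of 200 changed by 0.25. Each simulation changed only 200 of 19938 genes, while in the data 27.9% were called higher and 27.3% lower in that comparison. The Benjamini-Hochberg cutoff was therefore stricter in the simulation, and its counts do not give the share recovered in the data.

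The members and lists were chosen with earlier results of these data known. Named members were the isoforms, the c subunit genes and 10 subunits fixed as anchors (2 of each complex) in every comparison, and the largest called changes by complex or comparison. Other named values were added after they were seen, among them Ndufa4, genes shown beside another comparison, and Nrf1 and Gabpa, whose core sequences were searched. From the partner lists, up to 2 called genes with the largest change in each direction were named. Alternatives were centring, quantile normalization, leaving out dim genes, averaging probe sets, fitting only the groups compared, a replicate block, array weights, a robust variance trend and leaving out each array.

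Groups share replicate numbers in the labels. Deviations from the group means correlated between same-numbered differentiated adult and ES arrays at 0.15, 0.14 and 0.44, all above 0.1, which was the rule for taking numbers as pairs. Between numbers 1 and 2, differently numbered arrays of that comparison correlated as much (0.31 and 0.20), so these values do not single out the pairs of those numbers. Between number 3 and the other numbers the correlations were negative, at -0.37 to -0.23. Replicates 3 of both differentiated groups thus deviated together. In the other comparisons at least 1 pair was below 0.1.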

Additional observations from a re-analysis of the deposited data

Results flagged for a closer look

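The response to differentiation differed between adult and ES cells for 42 members, tested as an interaction in limma. The difference was negative for 28 members (34.6%) and positive for 14 (17.3%), against 21.5% and 24.2% of all genes. Positive differences, adult minus ES, were 1.17 for Ndufa4l2, 1.09 for Ndufs4, 0.79 for Ndufa1 and 0.71 for Ndufs1. Negative differences were -0.92 for Ndufa7, -0.99 for Uqcr11, -1.02 for Cox6b1 and -1.03 for Ndufb10.

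The difference between adult and ES cells itself differed between the Stra8 and 129SV backgrounds for 44 members by the same kind of test. It was negative for 32 members (39.5%) and positive for 12 (14.8%), against 21.8% and 21.3% of all genes. Positive differences, Stra8 minus 129SV, were 1.19 for Ndufa4l2, 0.90 for Ndufs1, 0.69 for Ndufa10 and 0.66 for Ndufs4. Negative differences were -1.06 for Ndufb10, -1.22 for Uqcrq, -1.28 for Uqcr10 and -1.39 for Ndufb7. Adult 129SV arrays enter both interactions, which are therefore not independent. In both, Ndufa4l2 means lay below 7.29, the median of all values, in every group except ES 129SV.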

How the results depend on the processing

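Total counts of called members, both directions together, stayed within 1.5 times the reported count except as follows. For adult against ES cells of Stra8, the 18 members became 33 in a fit of the groups compared, 35 with array weights and 11 without ES Stra8 replicate 3. For differentiated adult against ES cells, the 25 became 12 in a fit of the groups compared. Counts in 1 direction moved more. Beside those in the report, the 6 higher in adult Stra8 cells became 10 with dim genes left out, 14 in a fit of the groups compared and 15 with array weights, and the 12 lower became 19 and 20 in those last fits. The 3 higher in ES Stra8 cells became 6 with array weights, and 0 or 1 without ES 129SV replicate 2 or 3 or ES Stra8 replicate 1 or 3. Leaving out 1 array gave 50 to 57 for the differentiation of ES cells, 58 to 64 for that of adult cells, 39 to 45 and 11 to 15 for adult against ES cells of 129SV and Stra8, and 19 to 27 after differentiation. It gave 28 to 30 and 55 to 61 for Stra8 against 129SV in ES and adult cells, and 36 to 43 and 39 to 45 for the interactions of differentiation and origin. Over 337 named values and 5034 alternative values, none reversed with a call, 103 changed sign with neither value called, 132 lost a call and 76 gained one. Of 233 calls, 33 were lost under at least 1 alternative. For calls named in the report, the alternatives that ended them, or their number, stand beside the value, and the cause was not tested.

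With the replicate number as a block, the counts were 52 and 61 for differentiation of ES and adult cells, 46, 18 and 25 for adult against ES cells of 129SV, of Stra8 and after differentiation, 35 and 61 for Stra8 against 129SV in ES and adult cells, and 42 and 44 for the interactions. The block ended the calls of Atp5c1 for adult against ES 129SV cells (adjusted p = 0.0518) and of Ndufb8 for Stra8 against 129SV ES cells (0.0528), and gave one for Cox4i2 in differentiated cells (-0.23, adjusted p = 0.0163). It changed no other call of a named value.

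Background signal was not among the deposited values, so low signals such as those of Cox7b2 and Cox8b cannot be told from background, and no fold against them is a bound.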

Other observations

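Other large sets of housekeeping genes were measured on the same arrays, in lists chosen after values had been seen. Of 49 cytosolic ribosomal protein genes, 38 were higher in adult than in ES cells of 129SV and 2 lower, with a median difference of 0.29. In Stra8, none was higher in adult cells and 24 were lower, against 13.2% and 15.1% of all genes. On differentiation, 45 fell and none rose in adult cells, with a median of -0.48, while 21 fell and 6 rose in ES cells. Of all genes, 32.2% fell and 27.5% rose in adult cells, and 27.3% fell and 27.9% rose in ES cells. Of 74 mitochondrial ribosomal protein genes, 44 were higher and 3 lower in adult than in ES cells of 129SV, and 66 fell in adult and 52 in ES cells on differentiation, with medians of -0.55 and -0.40. Of 39 proteasome genes, 37 fell on differentiation of each origin, with medians of -0.76 in ES and -0.61 in adult cells, and 17 were higher and 8 lower in adult than in ES cells of 129SV. Over all genes, 23% were higher and 23.1% lower in adult cells there, so the respiratory chain was 1 of several such sets with more genes higher than lower.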
